A study of Mus musculus with 11 samples.

Results

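The tight junction genes examined here were 9 genes listed by name, namely 6 claudins (Cldn1, Cldn3, Cldn4, Cldn7, Cldn8 and Cldn10), occludin (Ocln) and the zonula occludens scaffold genes Tjp1 and Tjp3. They were 9 of the 27179 gene identifiers counted, and all 9 were among the 17370 genes that passed the filter on low counts. RNA-seq libraries had been made from the mammary glands of C57BL/6 females aged 5 weeks, all carrying an E-cadherin-GFP knock-in, with no treatment named for any group. Terminal end buds (TEBs), the bulbs at the growing tips of the pubertal ductal tree, and ducts were dissected apart under GFP light. Lin-CD29+CD24+ cells from each were then sorted into a GFP-high gate (luminal) and a GFP-low gate (basal). This gave 3 basal duct, 3 basal TEB, 2 luminal duct (replicates 1 and 3) and 3 luminal TEB libraries, each from at least 2 pooled mice. The remaining luminal duct sample had been discarded by the authors because few cells were obtained. Because the gate used the E-cadherin reporter, the difference in Cdh1, which encodes E-cadherin, between luminal and basal cells belongs to the sort.

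Tight junctions seal the space between neighboring epithelial cells near their apical surface. Claudins are membrane proteins whose strands form the barrier and set which ions can cross it, and occludin is a further membrane protein of the strands. The zonula occludens proteins ZO-1 (Tjp1) and ZO-3 (Tjp3) lie beneath the membrane and tie claudins and occludin to the actin cytoskeleton. ZO-1 also sits at other cell contacts. In the mammary epithelium, tight junctions join the luminal cells that line the duct, while basal cells form the outer, contractile layer.

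Total counts ran from 27989137 to 49221436 per library. The share of counts on mitochondrial genes ran from 4.34% to 37.5%, with basal TEB replicate 1 (37.5%) and luminal duct replicate 3 (28.5%) the highest, and basal TEB replicate 1 also had the fewest genes with a count (13302, against up to 18269). All levels below are CPM, the counts of a gene relative to its library's total counts, scaled by the trimmed mean of M-values (TMM). The labels held for the defining keratins. Krt8, a luminal keratin, was at 3304 to 6336 CPM in luminal libraries and at 201.1 to 367 CPM in basal ones, and Krt5, a basal keratin, was at 243 to 1826 CPM in basal libraries and at 1.46 to 20.3 CPM in luminal ones. The summed level of 9 luminal markers was 607 to 688 CPM in basal duct and 373 to 426 CPM in basal TEB, against 13109.8 to 20397 CPM in luminal duct and 13758 to 15778 CPM in luminal TEB. Of these markers, Esr1 was at 0 in basal TEB replicate 1 and Elf5 in basal TEB replicate 3. The 9 basal markers summed to 105.6 to 289 CPM in luminal duct and 16.0 to 29.3 CPM in luminal TEB, to 17235 to 21417 CPM in basal duct and to 5838 to 9111 CPM in basal TEB.

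Cldn4 and Cldn3 are neighbors on chromosome 5 (GRCm38.p6, the mm10 build of the counts), at chr5:134945123-134946934 and chr5:134986214-134987476, 39.28 kb apart. The other members lie on chromosomes 7 (Tjp1), 10 (Tjp3), 11 (Cldn7), 13 (Ocln), 14 (Cldn10) and 16 (Cldn1 and Cldn8). RefSeq start windows of 300 bases were found for 8 of the 9 members, with Cldn8 unmatched. The 250 bases before the start are shown for Cldn4, Cldn3 and Cldn7, the most abundant claudins of the luminal libraries, and for Tjp1, the member that basal cells also held at a high level. Capitals mark motif matches that lie wholly within the printed run, on either strand. The motifs searched were CAGGTG (the E-box bound by factors of the Snail and Zeb type, CACCTG on the other strand), TGANTCA (AP-1), CCGCCC (the GC box, GGGCGG on the other strand) and AACNGGTT (grainyhead). No marked matches overlapped. The Cldn4 and Tjp1 runs are on the minus strand, and the Tjp1 run lies inside the annotated gene, before an internal start. Cldn7 has 2 annotated starts, and the run before the second one is shown because it holds matches.
Cldn4, chr5:134946935-134947184: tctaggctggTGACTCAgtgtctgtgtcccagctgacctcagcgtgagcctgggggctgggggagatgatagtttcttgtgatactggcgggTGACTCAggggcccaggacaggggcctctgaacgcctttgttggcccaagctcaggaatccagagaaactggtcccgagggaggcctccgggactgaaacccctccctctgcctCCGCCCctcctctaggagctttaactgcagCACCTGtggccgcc
Cldn3, chr5:134985964-134986213: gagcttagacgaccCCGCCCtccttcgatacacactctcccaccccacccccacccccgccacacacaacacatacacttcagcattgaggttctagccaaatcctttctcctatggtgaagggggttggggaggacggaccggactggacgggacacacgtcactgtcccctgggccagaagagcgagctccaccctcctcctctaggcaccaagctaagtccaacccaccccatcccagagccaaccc
Cldn7, chr11:69965171-69965420: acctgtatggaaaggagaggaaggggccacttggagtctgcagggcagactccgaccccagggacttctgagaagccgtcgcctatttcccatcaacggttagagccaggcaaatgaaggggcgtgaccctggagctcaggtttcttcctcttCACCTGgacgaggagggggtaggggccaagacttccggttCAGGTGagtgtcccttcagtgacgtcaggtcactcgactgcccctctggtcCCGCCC
Tjp1, chr7:65371245-65371494: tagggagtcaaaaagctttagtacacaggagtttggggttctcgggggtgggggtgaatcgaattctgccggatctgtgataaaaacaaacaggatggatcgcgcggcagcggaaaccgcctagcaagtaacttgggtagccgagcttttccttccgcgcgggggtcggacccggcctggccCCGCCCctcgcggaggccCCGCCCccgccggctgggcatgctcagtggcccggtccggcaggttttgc

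The CAGGTG letters occurred in the windows of 5 of the 8 matched members (Cldn3, Cldn4, Cldn7, Ocln and Tjp3) and in 7 of their 12 windows, against 20.2% of all 32851 windows of this length. The 2 Ocln windows overlap, so these counts are not independent. Cldn4 held TGACTCA starting 240 and 158 bases before the start, the only member with an AP-1 match (7.81% of all windows). The GC box letters were in windows of 7 of the 8 members, Tjp3 being the exception. They were in 8 of the 12 windows, against 35.7% of all windows. AACNGGTT was in none of the 12 (2.09% of all windows). The share of G and C bases ran from 36% to 72% over the member windows, against a median of 52.7% over all windows. These matches describe letters only.

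**Figure D1:**
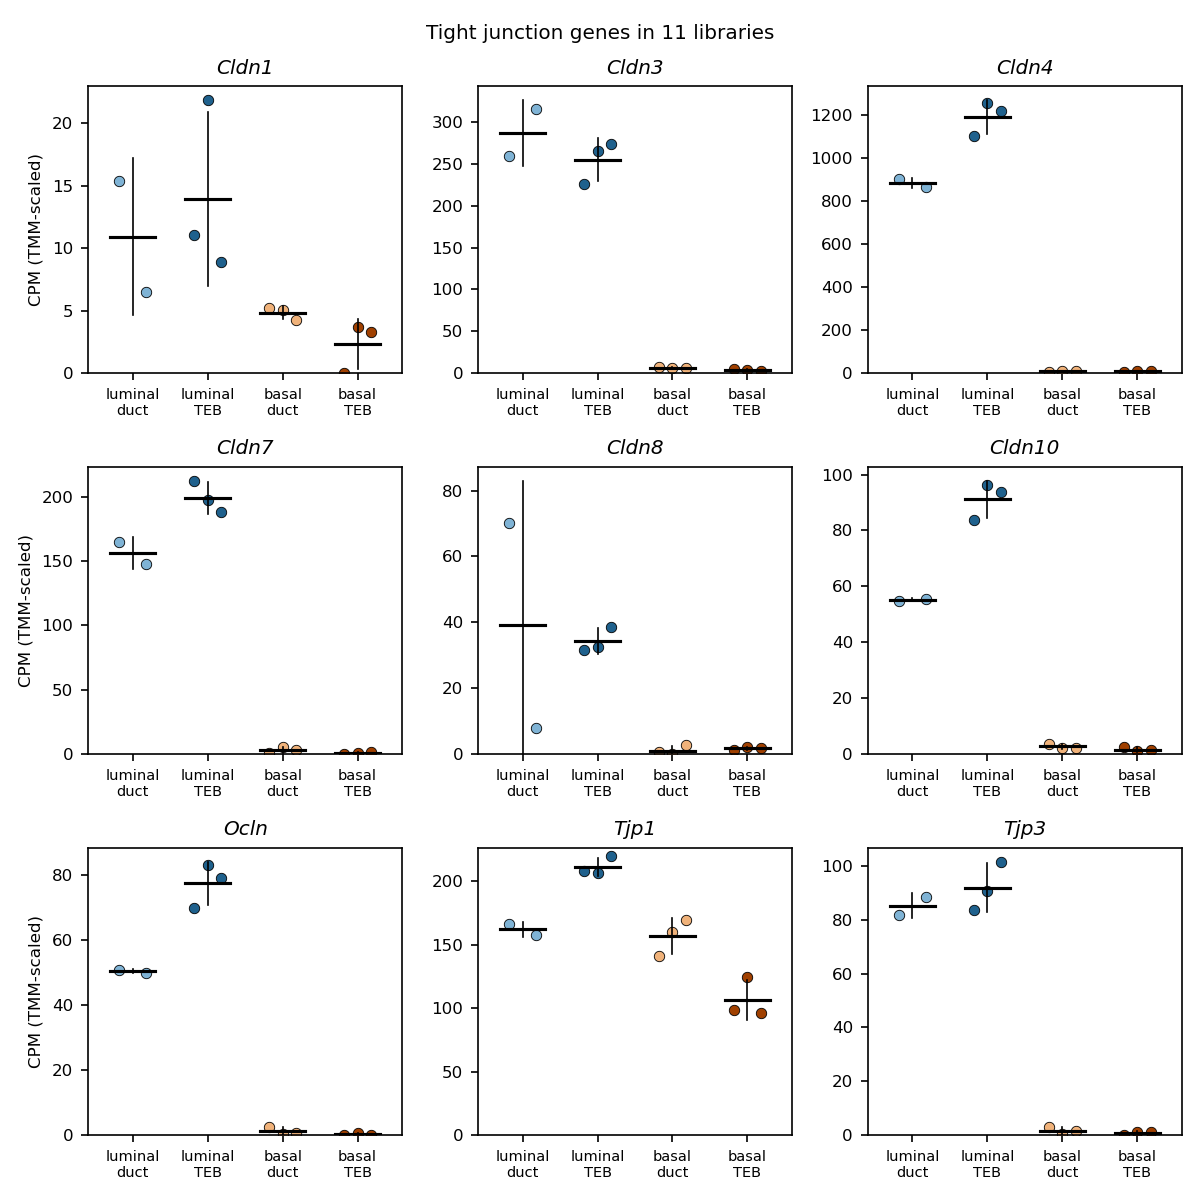
TMM-scaled CPM (vertical axis, from 0) of the 9 tight junction genes in each library. Points are libraries, horizontal bars group means and vertical lines 1 SD (n = 2 for luminal duct, otherwise 3). All but Tjp1 and Cldn1 lie near 0 in the 6 basal libraries, and Tjp1 is at 96.3 to 169 CPM there.

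The 3 claudins most abundant in luminal cells were Cldn4, Cldn3 and Cldn7, all barrier-forming claudins of simple epithelia. Cldn4 was measured at 899.8 and 865 CPM in the luminal duct libraries and at 1102, 1252 and 1219 CPM in luminal TEB. The same gene was at 4.99, 7.50 and 10.6 CPM in basal duct and at 7.04, 8.88 and 8.26 CPM in basal TEB. Luminal and basal libraries did not overlap, the luminal TEB libraries all lay above the luminal duct ones, and the basal duct and basal TEB ranges overlapped. Cldn3 stood at 259 and 316 CPM in luminal duct and at 226, 266 and 274 CPM in luminal TEB, which overlapped. In basal duct it was at 7.66, 6.05 and 5.59 CPM and in basal TEB at 4.68, 3.09 and 2.04 CPM, the TEB libraries all lying below the duct ones. Cldn3 overlaps the counted gene Wbscr25, and the methods do not state how reads in the shared stretch were counted. Cldn7 was at 165 and 147 CPM in luminal duct and 213, 197 and 188 CPM in luminal TEB. Its basal values were 0.998, 5.53 and 3.21 CPM in ducts and 0, 0.990 and 1.37 CPM in TEBs, where the ranges overlapped. The 0 in basal TEB replicate 1 allows up to 0.173 CPM (3 counts).

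Cldn10, a claudin that forms ion-selective pores, was at 54.8 and 55.6 CPM in luminal duct and at 83.7, 96.25 and 93.7 CPM in luminal TEB. In basal cells it was at 3.53, 2.32 and 2.23 CPM in ducts and 2.42, 1.01 and 1.37 CPM in TEBs. Luminal TEB thus lay wholly above luminal duct, and the basal groups overlapped. Cldn8, a claudin best known from the distal nephron, was uneven between the luminal duct libraries, at 70.1 CPM in replicate 1 and 8.02 CPM in replicate 3. The luminal TEB libraries (31.5, 32.4 and 38.7 CPM) fell between these values. Basal levels of Cldn8 were 0.539, 0 and 2.64 CPM in ducts and 1.15, 2.06 and 1.85 CPM in TEBs. Cldn1, a claudin needed for the skin barrier, was the least luminal of the 6 claudins among the members. It was at 15.4 and 6.46 CPM in luminal duct, 11.1, 21.9 and 8.90 CPM in luminal TEB, 5.25, 5.03 and 4.26 CPM in basal duct and 0, 3.68 and 3.30 CPM in basal TEB. Every basal library was below every luminal library for Cldn1, by a narrow margin in ducts.

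Ocln was at 50.8 and 49.9 CPM in luminal duct and at 69.9, 83.0 and 79.2 CPM in luminal TEB, with no overlap. Basal libraries held 2.49, 0.184 and 0.616 CPM in ducts and 0, 0.526 and 0.140 CPM in TEBs, only 30 counts in all over the 3 basal TEB libraries. Tjp3 had 81.8 and 88.5 CPM in luminal duct and 83.6, 90.6 and 102 CPM in luminal TEB, which overlapped. It was at 2.85, 0.368 and 1.56 CPM in basal duct and at 0, 1.22 and 1.09 CPM in basal TEB, and it overlaps the counted gene Apba3. Tjp1 differed from all of these. Its levels were 166 and 158 CPM in luminal duct, 208, 206 and 219.8 CPM in luminal TEB, 141, 160.3 and 169 CPM in basal duct and 98.5, 125 and 96.3 CPM in basal TEB. The duct groups overlapped, the basal TEB libraries lay below all others and the luminal TEB libraries above all others.

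The order of the group means was luminal TEB, luminal duct, basal duct, basal TEB for 6 of the 9 members. Cldn3 and Cldn8 were higher in luminal duct than in luminal TEB, with overlapping libraries, and Cldn4 and Cldn8 were higher in basal TEB than in basal duct, again overlapping. In bulk samples such as these, fewer cells of a type and less RNA per cell cannot be told apart.

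The difference between the basal and luminal layers was tested in ducts and in TEBs separately. In ducts, 7 of the 9 members were lower in basal cells at an FDR below 0.05 (edgeR quasi-likelihood test, Benjamini-Hochberg adjusted over all 17370 genes), and none was higher. Of all genes tested, 22.3% were called in this comparison and 9.71% were called lower. Every basal duct library lay below every luminal duct library for 8 members (all but Tjp1), as for 21.2% of all genes. The median log2 fold change over the members was -5.48, against 0.08 over all genes. Cldn4 had the greatest fall of the members, 115-fold (log2 fold change -6.84, SE 0.31, adjusted p = 3.29e-07). The other claudins called were Cldn7 at -5.60 (SE 0.72), Cldn3 at -5.48 (SE 0.31), Cldn8 at -5.21 (SE 1.23) and Cldn10 at -4.35 (SE 0.35). Ocln fell by 5.49 (SE 0.86, adjusted p = 0.000633) and Tjp3 fell by 5.72 (SE 0.81, adjusted p = 0.000298) on the log2 scale. Cldn8 (adjusted p = 0.00947) rested on luminal duct replicate 1, since without that library its log2 fold change was -2.92 and the adjusted p 0.132, and it also missed the threshold when only the 2 duct groups were fitted (adjusted p = 0.0725).

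Tjp1 and Cldn1 did not pass in ducts. For Tjp1 the log2 fold change was -0.05 (95% confidence interval -0.42 to 0.33, adjusted p = 0.881), and the sign changed when basal duct replicate 1 was left out or when libraries were scaled by size alone (0.03 and 0.07). Cldn1 was at -1.17 (95% confidence interval -3.60 to 1.26, adjusted p = 0.487). It passed the test (adjusted p = 0.0345) without the 2 libraries of highest mitochondrial share, basal TEB replicate 1 and luminal duct replicate 3.

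**Figure D2:**
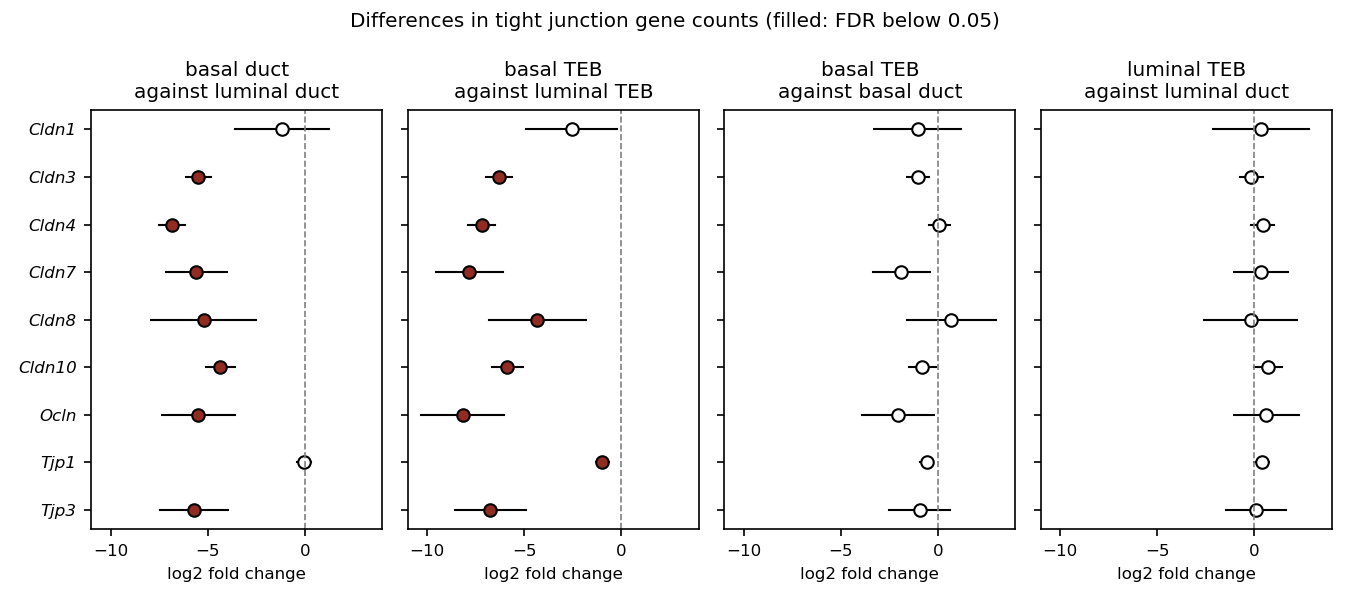
Log2 fold changes (horizontal axis) of the 9 members in 4 comparisons, with 95% confidence intervals from edgeR. Filled points passed FDR 0.05: 7 in basal against luminal duct, 8 in basal against luminal TEB and 0 in either comparison of TEB with duct.

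In TEBs, 8 of the 9 members were lower in basal cells, where 25.1% of all genes were called and 11.8% were called lower. The median over the members was -6.31, against 0.04 over all genes. Ocln showed the greatest fall (log2 fold change -8.17, SE 0.97, adjusted p = 6.36e-05), followed by Cldn7 (-7.83, SE 0.79), Cldn4 (-7.20, SE 0.31), Tjp3 (-6.76, SE 0.83), Cldn3 (-6.31, SE 0.31), Cldn10 (-5.88, SE 0.36) and Cldn8 (-4.32, SE 1.15). Tjp1 was also called here, fell by 0.99 on the log2 scale (SE 0.15, adjusted p = 0.000504), and was 1.99-fold lower in basal TEB. Cldn1 was at -2.57 (SE 1.07, adjusted p = 0.105). The groups did not overlap for any of the 9 members, all lower, whereas 27.2% of all genes had every basal TEB library below every luminal TEB library. Without basal TEB replicate 1, Cldn1 passed (-2.0, adjusted p = 0.0263) and the other 8 calls held, Cldn8 by the least (adjusted p = 0.0482). Cldn8 lost its call without basal TEB replicate 3 (adjusted p = 0.0567).

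The level left in basal cells was set beside that of luminal markers, each as a percentage of the luminal mean of the same structure. In ducts, Cldn4 was at 0.874% of its luminal mean, Tjp3 at 1.87%, Cldn7 at 2.08%, Ocln at 2.18%, Cldn3 at 2.24%, Cldn8 at 2.71% and Cldn10 at 4.88%. Of the 9 luminal markers, 7 were at 0.349% (Krt7) to 7.10% (Krt8), while Kit was at 13.5% and Gata3 at 29.2%. Cldn1 (44.4%) and Tjp1 (96.8%) were above all of these. In TEBs, Ocln was at 0.287%, Cldn7 at 0.395%, Cldn4 at 0.677%, Tjp3 at 0.839%, Cldn3 at 1.28%, Cldn10 at 1.76% and Cldn8 at 4.94%. The same 7 markers were at 0.356% (Krt7) to 4.20% (Krt8), with Gata3 at 40.5% and Kit at 58.1%, beside 50.4% for Tjp1 and 16.7% for Cldn1. Per library, the median over the 9 members ran from 2.05% to 3.35% in basal duct and from 0.591% to 1.21% in basal TEB, and the median over the 9 luminal markers ran from 1.05% to 2.35% and from 0.807% to 1.20%. RNA of 7 of the 9 luminal markers was thus low together with that of the 7 members, RNA of Gata3 and Kit less so, and the part of luminal marker RNA in the members' basal levels was not tested.

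**Figure D3:**
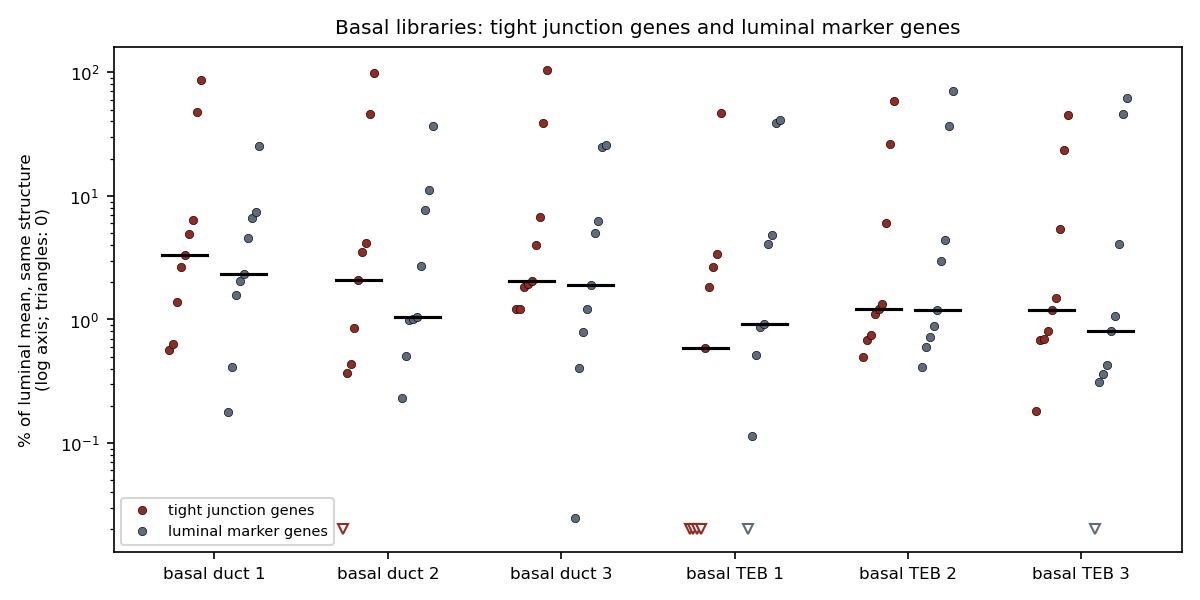
Each basal library's level of the 9 tight junction genes and 9 luminal marker genes, as a percentage of the luminal mean of the same structure (log axis, triangles at the bottom for 0). Bars are medians. The medians lie between 0.591% and 3.35% for both lists, and Tjp1 is the highest tight junction gene in each library.

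TEBs were compared with ducts within each layer. In basal cells, none of the 9 members passed edgeR's quasi-likelihood test, where 1.32% of all genes were called. At an unadjusted p under 0.05 there were 5 members (Cldn3, Cldn7, Cldn10, Ocln and Tjp1), all with lower values in TEBs, against 14.5% of all genes. The signs were lower for 7 members and higher for Cldn4 and Cldn8, with a median of -0.93 against -0.03 over all genes. Tjp1 had a log2 fold change of -0.56 (SE 0.15, adjusted p = 0.118) and Cldn3 of -1.01 (SE 0.26, adjusted p = 0.102). For these and for Cldn1 every basal TEB library was below every basal duct library, a pattern shown by 11.9% of all genes. DESeq2's Wald test called Cldn3 (adjusted p = 0.00932) and Tjp1 (adjusted p = 0.00849), the edgeR likelihood ratio test called Cldn3 (adjusted p = 0.0151) and limma voom called neither. Leaving out basal TEB replicate 1 brought Cldn3 past the threshold (-1.31, adjusted p = 0.0357), and leaving out basal TEB replicate 2 did so for Tjp1 (adjusted p = 0.0373). The summed luminal markers were also lower in basal TEB than in basal duct (373 to 426 against 607 to 688 CPM). Of the 9, Krt18 passed the test (log2 fold change -1.98, adjusted p = 0.00197), 6 more had lower and 2 higher values (Krt7 at 0.01 and Kit at 1.07), and the median was -0.73. The summed basal markers were lower in basal TEB too (5838 to 9111 against 17235 to 21417 CPM), with 4 of 9 called lower and a median of -1.84. The part of either list was not tested.

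In luminal cells, none of the 9 members passed the same edgeR test between TEB and duct, where 1.41% of all genes were called, and 2 (Tjp1 and Cldn10) had an unadjusted p under 0.05, against 16.6% of all genes. DESeq2 and limma voom called none. The luminal TEB libraries lay wholly above the luminal duct libraries for Cldn4, Cldn7, Cldn10, Ocln and Tjp1, and 26.2% of all genes showed that pattern, with 2 duct libraries. Cldn10 had the highest log2 fold change (0.72, SE 0.33, adjusted p = 0.297), and it passed when only the 2 luminal groups were fitted (adjusted p = 0.0451). Values for the others were 0.62 for Ocln (95% confidence interval -1.07 to 2.31), 0.43 for Cldn4 (-0.15 to 1.01), 0.38 for Tjp1 (0.0041 to 0.76) and 0.35 for Cldn7 (-1.05 to 1.75). Scaling by library size alone raised the median of all genes in this comparison from 0.04 to 0.42, and the sign of Cldn3 (-0.17) became positive under it (0.23). Mitochondrial share was 4.34% to 4.77% in luminal TEB and 8.51% and 28.5% in luminal duct, and its part was not tested. Cldn8 turned from -0.19 to 2.09 without luminal duct replicate 1.

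The test of whether the TEB effect differed between the layers (basal minus luminal) called none of the 9 members, where 0.443% of all genes were called. At an unadjusted p under 0.05 there were 5 members (Cldn3, Cldn7, Cldn10, Ocln and Tjp1), all with negative values, against 14.7% of all genes. Tjp1 was at -0.94 (SE 0.23, adjusted p = 0.112) and Cldn10 at -1.52 (SE 0.45, adjusted p = 0.173). The likelihood ratio test called both (adjusted p = 0.0300 and 0.04997), DESeq2 called Tjp1 (adjusted p = 0.00932), limma voom called neither, and Tjp1 passed without basal TEB replicate 2 (adjusted p = 0.0328).

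To compare claudins with each other, counts were divided by the counted gene length. The summed level of 23 claudins was 911 ± 13.6 CPM per kb in luminal duct (SD, n = 2), 1117 ± 63.1 in luminal TEB (n = 3), 37.3 ± 17.9 in basal duct (n = 3) and 24.0 ± 3.62 in basal TEB (n = 3). Luminal cells were dominated by Cldn4, with 53.5% ± 0.675 of the claudin level in ducts and 58.8% ± 0.634 in TEBs. Cldn3 took 25.0% ± 3.83 in luminal duct and 18.1% ± 0.922 in luminal TEB, Cldn7 11.8% ± 0.768 and 12.3% ± 1.46, and Cldn10 4.19% ± 0.110 and 5.64% ± 0.0950. Per kb, Tjp1 stood at 22.8 ± 0.831 CPM in luminal duct, close to Tjp3 at 28.1 ± 1.56, while Ocln was at 15.8 ± 0.200.

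Basal cells had another make-up, led by Cldn12, a claudin outside the list of 9, with 27.1% ± 3.92 in ducts and 35.4% ± 3.72 in TEBs. Cldn12 itself was at 25.7 to 52.2 CPM in all 11 libraries and passed no comparison (for basal against luminal duct the log2 fold change was 0.34, adjusted p = 0.436). Its share was thus high where the luminal claudins were low. Cldn3 and Cldn4 held 16.6% ± 10.4 and 12.5% ± 5.06 in basal duct and 11.3% ± 6.11 and 18.6% ± 0.712 in basal TEB. Cldn5, the claudin of endothelial cells, took 34.3% in basal duct replicate 2 and 1.64% at the lowest in the same group. The summed level of 9 endothelial markers, Cldn5 among them, was 309 CPM in that library and 15 CPM at the lowest in basal duct, so Cldn5 moved with the other endothelial genes. The Lin- gate was set to remove endothelial cells.

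**Figure D4:**
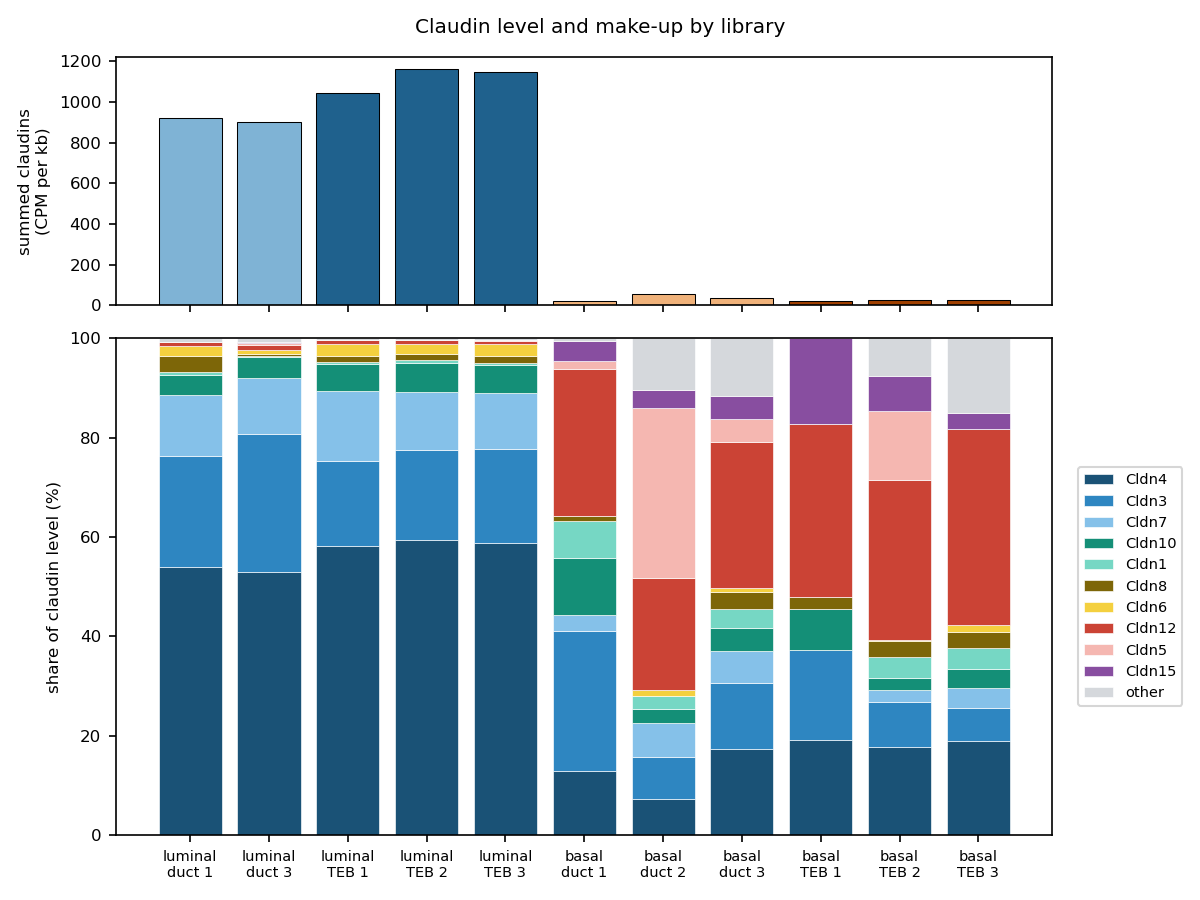
Summed level of 23 claudins per library in CPM per kb (top) and the share of each claudin in that sum in percent (bottom), with claudins not drawn singly grouped as other. Luminal libraries are made up mostly of Cldn4, Cldn3 and Cldn7, while in basal libraries the sum is 20.3 to 56.6 CPM per kb and Cldn12 has the greatest mean share in both groups.

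Other tight junction genes were described from lists, without a test of the lists. Among the remaining claudins, 10 of 18 listed passed the filter, 2 were lower in basal than in luminal duct (9.71% of all genes were) and 1 in TEBs (11.8%), so that the count in TEBs was near the share over all genes, and no other comparison called any. These were Cldn6, at 12.1 to 42.1 CPM in luminal libraries and at 0 to 0.921 CPM in basal ones (called in both structures), and Cldn23 (called in ducts, log2 fold change -4.78, adjusted p = 0.0246). The Cldn23 call was lost without basal duct replicate 1 (adjusted p = 0.0806), 2 (0.0509) or 3 (0.0741) or luminal duct replicate 3 (0.0689), and the Cldn6 call in ducts when only the 2 duct groups were fitted (0.0514). Both were chosen after their values were seen. The median log2 fold change of the 10 remaining claudins was 0.12 in ducts and 1.48 in TEBs, on the side of higher values in basal cells. Over all genes it was 0.08 and 0.04, and over the 9 members -5.48 and -6.31. Of 13 further junction membrane proteins, 5 were lower and 1 higher in basal duct, where 9.71% of all genes were lower and 12.6% higher, and 7 were lower and 1 higher in basal TEB, where 11.8% were lower and 13.2% higher. Some genes of the tricellular junction were among the lower ones. Marveld2 (tricellulin) had log2 fold changes of -3.09 in ducts and -2.76 in TEBs, Lsr (angulin-1) of -1.11 and -1.83, and Marveld3, a relative of occludin, of -3.72 and -2.63. With libraries scaled by size alone Lsr missed the threshold in ducts (adjusted p = 0.0620). The median of this list was -0.20 in ducts and -0.68 in TEBs. Neither comparison of TEB with duct called any of the 13.

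The cytoplasmic plaque proteins did not move as a block. Of 17 tested, 6 were higher and 3 lower in basal than in luminal duct, and 6 were higher and 8 lower in TEBs, with medians of 0.30 and -0.57. Of all genes tested, 12.6% were called higher and 9.71% lower in ducts, and 13.2% and 11.8% in TEBs. The higher genes included Mpdz (MUPP1, a scaffold with many PDZ domains), which was at 141 to 172 CPM in basal duct and at 5.42 and 16.9 CPM in luminal duct (log2 fold change 3.79, SE 0.47, adjusted p = 0.000120), and at 4.19 (SE 0.40) in TEBs. Amotl1 and Amotl2, relatives of the angiomotin scaffold, were at 2.35 and 1.64 in ducts, and in TEBs Magi1 was at 1.23 and Tjap1 at 1.19. The lower genes included Cgnl1 (paracingulin, -1.91 in ducts and -3.67 in TEBs), Magi3 (-2.03 in TEBs) and Afdn (afadin, -0.82 in ducts and -1.10 in TEBs). Cingulin (Cgn), named after its values were seen, was at 155 to 184 CPM in luminal libraries and at 0 to 2.86 CPM in basal ones. With libraries scaled by size alone, Afdn in ducts and Magi1 and Tjap1 in TEBs no longer passed (adjusted p = 0.211, 0.0527 and 0.0743), and Afdn in ducts also missed the threshold when only the 2 duct groups were fitted (0.0576).

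Of the 17 plaque genes tested, 1 was called between basal TEB and basal duct, where 1.32% of all genes were. Between luminal TEB and luminal duct 0 were called, where 1.41% of all genes were. The gene called was Cgnl1, which was lower in basal TEB than in basal duct. It went from 34.4, 47.5 and 34.5 CPM in basal duct to 8.54, 16.1 and 9.19 CPM in basal TEB, so that the groups did not overlap (log2 fold change -1.78, SE 0.25, adjusted p = 0.00585). Scaling by library size alone, which moved the median of all genes from -0.03 to -0.16, ended this call (adjusted p = 0.0755), and no library taken out by itself did.

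**Figure D5:**
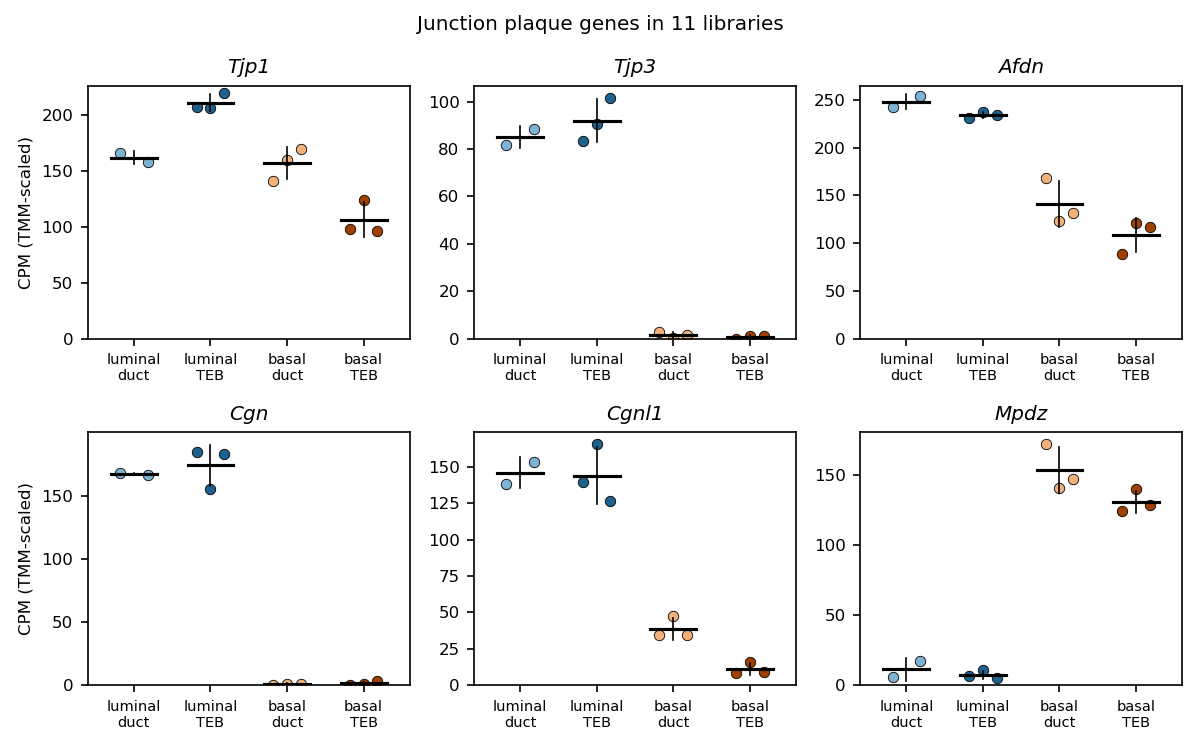
TMM-scaled CPM (vertical axis, from 0) of 6 junction plaque genes in each library, with group means (horizontal bars) and 1 SD (vertical lines). Cgnl1 is lower in basal TEB than in basal duct, Cgn and Tjp3 are near 0 in basal cells, and Mpdz is high in basal cells.

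Among 16 regulators of the epithelial barrier, 10 were lower in basal duct (9.71% of all genes were) and 11 in basal TEB (11.8%), none was higher, and the medians were -1.87 and -1.46. Gata3 in this list is also 1 of the 9 luminal markers, and the part of luminal marker genes in these counts was not tested. Foxa1, a luminal transcription factor, was at -7.40 and -8.24, Spint1, an inhibitor of membrane serine proteases, at -4.36 and -3.45. Prss8, a membrane serine protease, was at -2.73 in ducts, and Elf3, an epithelial transcription factor, at -2.80 in TEBs. Gata3, a luminal transcription factor, was lower in luminal TEB (163, 127 and 185 CPM) than in luminal duct (333 and 413 CPM), with a log2 fold change of -1.23 (SE 0.22, adjusted p = 0.0241) that was lost in 8 of 25 alternatives, among them the removal of luminal duct replicate 3 (adjusted p = 0.0955) and of each luminal TEB library.

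The list of 6 repressors known to act on junction genes had 2 members higher in basal duct and 1 in basal TEB. Of all genes, 12.6% and 13.2% were higher in these comparisons, so that the count in TEBs was near the share over all genes. Snai2 and Snai1 are named after their values were seen. Snai2 had low counts in luminal libraries, and Snai1 had low counts in all groups. Zeb1, Zeb2, Twist1 and Twist2, the rest of the list, were called in neither comparison. Zeb1 averaged 4.52 CPM in basal duct and 5.82 CPM in luminal duct (0 and 11.6 CPM), and 1.55 and 0.185 CPM in TEBs. Zeb2 averaged 2.75 and 1.70 CPM in ducts and 1.45 and 0.473 CPM in TEBs. Twist1 and Twist2 averaged 1.47 and 0.291 CPM in basal duct, 1.71 and 0.444 CPM in basal TEB, and 0 CPM in luminal duct. Snai2 (Slug) was at 46.4 to 72.0 CPM in basal libraries, at 1.55 and 0.123 CPM in luminal duct and at 0, 0.0762 and 0 CPM in luminal TEB, and was called higher in basal cells of both structures. Its lower level in luminal TEB than in luminal duct passed as well (adjusted p = 0.0331), but the call was lost in 12 of 24 alternatives, among them the removal of luminal duct replicate 1 (adjusted p = 0.354), luminal TEB replicate 1 (0.108), 2 (0.0526) or 3 (0.138), basal duct replicate 1 (0.0557) or 3 (0.0589) and basal TEB replicate 3 (0.0623). Basal markers were likewise lower in luminal TEB (16.0 to 29.3 CPM against 105.6 to 289 CPM in luminal duct), and their part was not tested. Snai1 (Snail) was at 2.15, 4.92 and 3.51 CPM in basal duct and at 0 in both luminal duct libraries, and its call was lost without luminal duct replicate 1 (adjusted p = 0.0883) or 3 (0.0773) and with the replicate block (0.0532). Of 9 adherens junction genes, 2 were called higher and 3 lower in basal duct, and 2 higher and 5 lower in basal TEB. Over all genes, 12.6% were called higher and 9.71% lower in ducts, and 13.2% and 11.8% in TEBs. Cdh3 (P-cadherin, log2 fold change 7.96 in ducts and 7.84 in TEBs) and Nectin1 (2.12 and 1.72) were higher in basal cells. The lower genes included Cdh1 (-1.49 and -2.42), Nectin2 (-0.97 and -1.33) and Nectin4 (-5.59 and -6.04). Nectin2 in ducts was at an adjusted p of 0.00252 and, by library size alone, 0.0899. Cdh1 is the gene whose reporter set the gate.

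The genes with profiles most like the members were ranked over the 11 libraries among 9298 genes, by the root mean square distance of centred log2 CPM. Profiles were not scaled to a common spread, so a distance also depends on how widely a gene's log2 CPM ranged. Distances of different members therefore cannot be ranked against each other as likeness. Tjp1, whose log2 CPM ran from 6.59 to 7.78, had the closest neighbors, Cds2 (0.140) and Tut7 (0.145). Cldn3 was nearest to Tox2 (0.490) and Cldn10 (0.520), Cldn10 to Agps (0.477), Tjp3 to Esr1 (0.551) and Tmprss2 (0.687), Cldn7 to Wfdc2 (0.567) and Gipc2 (0.629), Cldn4 to Prlr (0.606) and Tlcd4 (0.677), and Cldn1 to Nubp2 (0.613) and Sh3yl1 (0.615). Ocln (Krt6a at 0.874, Plet1 at 0.926) and Cldn8 (Homer2 at 0.894, Thsd4 at 1.35) had the most distant neighbors. With a prior count of 0.5 in place of 2 on the log scale, 14 of the 18 neighbors ranked for the 9 members stayed the same.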

How the data were processed

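Gene-level read counts of 11 bulk polyA RNA-seq libraries were deposited by the authors. Per the methods, about 10 ng of total RNA went into TruSeq RNA v2 libraries, which were sequenced as 80 bp paired-end reads, aligned to mm10 with Rsubread and counted by Entrez Gene against its inbuilt RefSeq annotation. The submitters' processing notes name featureCounts. The kit does not mark strand, so reads of overlapping genes cannot be told apart. No column of per-sample values was left unused. Symbols were matched through RefSeq identifiers (93.0% of 27179), and 3 listed symbols (Cldn25, Pals1 and Hbb-bt) had no match.

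Counts were analysed as deposited with edgeR 4.0.16 in R 4.3.3. Genes were kept by filterByExpr (minimum count 10, minimum total 15), libraries were scaled by TMM (factors 0.619 to 1.23), and 1 model of the 4 group means was fitted with glmQLFit. Calls used glmQLFTest with Benjamini-Hochberg adjustment and FDR 0.05. SE was taken from the fold change and F statistic. DESeq2 1.42.0 and limma 3.58.1 were alternatives. P-values measure the spread between these pooled samples. The common biological coefficient of variation was 0.704. The code was tested on simulated counts.

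The members and lists were chosen with earlier results of these data known. The rule for named genes took all members, from each non-marker list up to 3 called genes in each direction with the greatest log2 fold change whose log2 CPM averaged 3 or more, the 2 nearest genes of each member, and Krt8 and Krt5. Some genes of these lists are not reported here and were left out of the list counts and medians, and the next genes by the rule took their place. Where no read was counted, the upper bound used was 3 counts, for counting error alone. Promoter windows came from RefSeq (GRCm38.p6). Summed markers of other cell types ran from 6.35 to 912 CPM over libraries for fibroblasts, 67.9 to 445 for Schwann cells, 4.01 to 309 for endothelial, 6.10 to 94.5 for immune, 0 to 189 for adipocyte and 0.252 to 31.3 for erythroid genes. Alternatives tried were other scalings, filters, tests, the threshold, the fitted groups, a replicate block, removal of mitochondrial genes, and leaving out each library or the 2 of highest mitochondrial share.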

Additional observations from a re-analysis of the deposited data

How the results depend on the processing

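Across the 25 alternatives for each comparison (24 for the interaction), 1080 of 1116 member values kept their direction and their side of the threshold, 17 passed it newly, 4 no longer did and 15 changed sign. Numbers of members called stayed at 6 to 8 for basal against luminal duct and at 7 to 9 in TEBs. Between basal TEB and duct the main count of 0 became 1 by the likelihood ratio test, 2 by DESeq2 and 1 without the 2 libraries of highest mitochondrial share, and was 0 to 1 when single libraries were left out. Between luminal TEB and duct it became 1 when only the groups compared were fitted and stayed at 0 for each library left out. The interaction count became 2 by the likelihood ratio test and 1 by DESeq2, and 0 to 1 for single libraries. Where a luminal duct library was left out, the lone one was assumed to vary like the other groups.

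Sign changes were all in members that had not passed. With library size alone, Cldn4 turned to -0.051 between basal TEB and duct, Cldn3 to 0.23 and Cldn8 to 0.075 between luminal TEB and duct, and Tjp1 to 0.068 between basal and luminal duct. Between luminal TEB and duct, Cldn1 also turned to -0.0097 with voom quality weights and to -0.12 without the 2 libraries of highest mitochondrial share, and Cldn8 to 0.10 with voom. Leaving out single libraries gave -0.19 (basal duct replicate 1 out) to 0.38 for Cldn4 between basal TEB and duct, -0.14 (luminal duct replicate 3 out) to 1.11 for Cldn1 and -1.04 to 2.09 (luminal duct replicate 1 out) for Cldn8 between luminal TEB and duct, -0.10 to 0.027 (basal duct replicate 1 out) for Tjp1 between basal and luminal duct, and -1.41 (luminal duct replicate 1 out) to 2.78 for the Cldn8 interaction. The cause was not tested.

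Deviations of same-numbered libraries were weakly related. Of 15 same-numbered pairs 11 had a positive r and 4 an r above 0.1 (-0.07 to 0.16), against 11 and 2 of 30 pairs with different numbers, and 8 of 11 libraries were closest on average to their own number. The labels do not say that a number marks a shared animal, day or batch, so the libraries were not paired in the main fit. These correlations cannot decide whether the libraries were paired. Deviations sum to 0 within each group, so the pairs are not independent. For example, luminal TEB replicate 1 had r = 0.163 with luminal duct replicate 1 and -0.163 with replicate 3. With the replicate block, 0, 0, 7, 8 and 0 members were called for these comparisons in turn (basal TEB against duct, luminal TEB against duct, ducts, TEBs, interaction), and Cldn1 between luminal TEB and duct turned to -0.059. The calls over all genes went from 230 to 204, 245 to 125, 3878 to 3293, 4354 to 4030 and 77 to 46. Over all genes, DESeq2 called 874 genes between basal TEB and duct, 1277 between luminal TEB and duct and 712 in the interaction, and limma voom 601, 351 and 95. Library size alone moved the median of all genes from -0.03 to -0.16, 0.04 to 0.42, 0.08 to 0.19, 0.04 to -0.35 and -0.13 to -0.63, and the share of higher among all calls from 12.6% to 1.75% (basal TEB against duct), 52.8% to 37.2% (TEBs) and 18.2% to 6.67% (interaction). Of 108 mean levels under other scalings 33 moved by more than 1 SD. Low basal counts limit precision, as for Ocln.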
